A study of Mus musculus with 7 samples.

Results

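Medial ganglionic eminence (MGE) type interneurons made up 449 of the 23005 barcodes kept from 7 libraries of fetal mouse cortex, a share of 1.95%. They were chosen by their own transcripts. A member had at least 500 detected genes and at most 10% mitochondrial transcripts, and the unique molecular identifiers (UMIs, each standing for 1 captured transcript) of Lhx6, Sst, Maf and Nxph1 summed to at least 2. It also had at least 1 UMI of Gad1, Gad2, Dlx1 or Dlx6os1, at most 1 UMI of Neurod6, and none of Adarb2, Htr3a, Prox1, Top2a or Mki67. The study asked what loss of Ash1l, a histone H3 lysine methyltransferase, does to the developing cortex. The 4 mutant embryos (replicates 10, 11, 12 and 17) were Emx1CreERT2;Ash1lfl/fl and the 3 control embryos (replicates 14, 15 and 16) were Ash1lfl/fl, so both groups carried the floxed alleles and only the mutants carried the Cre. All 7 were littermates taken at E18.5 (embryonic day), and the dam had been given tamoxifen at 100 mg/kg at E10.5, so the controls were exposed to the drug too. Each dissected cortex gave 1 Seq-Well library, in which single cells and barcoded beads share small wells.

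Cortical interneurons that use GABA are born outside the cortex, in the ganglionic eminences of the ventral forebrain, and migrate into it tangentially. The MGE, which is patterned by Nkx2-1 and then Lhx6, gives rise to the interneurons that later contain somatostatin or parvalbumin. The caudal ganglionic eminence (CGE) gives rise to those marked by Prox1, Htr3a and Adarb2. Emx1 is expressed in the dorsal progenitors that produce the glutamatergic neurons and is not a gene of the MGE lineage, so in this model the Cre driver belongs to neighbours of the interneurons. In a mutant embryo the interneurons therefore developed in a cortex whose dorsal lineage carried the Cre, and whether their own Ash1l alleles were recombined is not given by the labels.

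The 4 genes summed by the rule were not equally common. Of the 449 members, 77.3% had an Lhx6 UMI, 55.2% a Maf UMI, 49.7% an Nxph1 UMI and 35.2% an Sst UMI. Lhx6 encodes the LIM homeodomain factor of the MGE lineage, Maf a bZIP factor of postmitotic MGE interneurons, Nxph1 a secreted neurexin ligand and Sst the neuropeptide somatostatin. The share with a UMI of Gad1, a further rule gene, was 50.8%, and Gad1 encodes a GABA-synthesising enzyme. The rule chose the members by these genes, so their shares say nothing of what the cells are. Outside the rule, 65.7% had a UMI of Erbb4, the neuregulin receptor of cortical interneurons, and 24.5% a UMI of Sox6, a factor that acts after Lhx6 in this lineage. Free RNA in the wells sets a background for such shares. Among 3879 barcodes with at least 2 Neurod6 UMIs outside the members, 4.43% had an Erbb4 UMI and 3.22% a Sox6 UMI, although their median depth was 2593 UMIs against 1657 in the members. After thinning every barcode to 1000 UMIs, which 371 members reached, the Erbb4 share was 49.3% in members and 1.94% in those Neurod6 barcodes.

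The promoter of Sst, the rule gene that marks a later cell fate, is shown as the sequence behind that marker. It is the 250 bases before the RefSeq start of Sst (GRCm38.p6, chr16:23890845-23891094, minus strand), given 5′ to 3′ with the cAMP response element TGACGTCA in capitals.
Sst: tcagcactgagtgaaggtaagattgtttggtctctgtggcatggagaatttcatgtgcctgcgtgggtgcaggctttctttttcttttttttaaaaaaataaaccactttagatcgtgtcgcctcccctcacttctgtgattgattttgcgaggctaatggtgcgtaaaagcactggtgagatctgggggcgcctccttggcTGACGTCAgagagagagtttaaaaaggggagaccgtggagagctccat
The element begins 48 bases before the start. Read on either strand, TGACGTCA occurs in 1.56% of 32536 distinct promoter windows of 250 bases. A match of letters is a description and does not show that a factor bound there. Somatostatin is the classic gene in which this element was described. The GENCODE annotation of the same build places the start of Sst further upstream, at position 23890958, so by that annotation the element lies inside the gene.

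The gate was loose at its lower edge. There were 146 members with a sum of exactly 2 over the rule genes, just inside the threshold, and 290 barcodes that met every other condition with a sum of 1, just outside it. Of those just inside, 52.7% had an Erbb4 UMI and 20.5% a UMI of Sox6. Of those just outside, 44.5% had an Erbb4 UMI and 12.1% a Sox6 UMI. Median depth was 1333 UMIs just inside and 1200.5 just outside, so the threshold also leaned on depth. The commonest combinations of rule genes were Lhx6 with Maf in 81 members and, in 53 members each, Lhx6 alone and Lhx6 with Nxph1, while 33 members held all 4 genes. Doublets were not removed.

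The members held no cycling cells by the rule. Of the 13 genes listed for the parvalbumin type, Pvalb, Syt2 and Pthlh had no UMI, while others were seen, among them Kcnc2 in 10.7% and Cplx1 in 7.35% of members. In the 3879 barcodes with Neurod6, which were deeper, these shares were 1.08% for Kcnc2 and 17.5% for Cplx1. The Cplx1 share was thus lower in members, and whether it stood above free RNA was not tested. Pvalb, which marks mature basket cells, had 0 UMIs in the 449 members, which allows a share of cells with a UMI of up to 0.668% at 3 counts. Nkx2-1, the progenitor factor of the MGE, was seen in 13 members (2.90%), and no barcode among the 3879 with Neurod6 had a UMI of it. Markers of other cell types were low for some lists and not for others. In the summed members of an embryo, the 9 glutamatergic genes reached 151 to 435 CPM (UMIs of the genes per 1000000 UMIs of those cells) in mutants and 102 to 413 CPM in controls. The 8 CGE genes reached 109 to 275 CPM in mutants and 205 to 306 CPM in controls, with Adarb2, Htr3a, Prox1 and Vip at 0 UMIs, the first 3 by the rule. Cholinergic genes, which mark another class of Lhx6 neurons from the same eminence, reached at most 11.0 CPM in mutants and 7.07 CPM in controls, and Chat was at 0 UMIs. Microglial genes reached at most 45.8 CPM in mutants and 6.78 CPM in controls, and endothelial genes at most 7.63 CPM in mutants and 0 CPM in controls. Striatal genes reached 72.5 to 230 CPM in mutants and 33.9 to 244 CPM in controls, with Drd2 and Adora2a at 0 UMIs. Cajal-Retzius genes, a list that includes Reln, reached 131 to 389 CPM in mutants and 198 to 475 CPM in controls. The highest values came from red blood cell genes, which reached 137 to 11853 CPM in mutants and 67.8 to 268 CPM in controls, and from radial glia genes, at up to 1710 CPM in mutants and 480 CPM in controls. Oligodendrocyte precursor genes reached up to 556 CPM in mutants and 12.5 CPM in controls, and meningeal and choroid plexus genes up to 459 CPM in mutants and 7.07 CPM in controls.

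Depth was moderate. The libraries held 7083225 to 11859209 UMIs each, and the members of an embryo summed to 91294 to 165437 UMIs from 50 to 87 cells. Across libraries, 24 kept barcode sequences occurred more than once, with at most 6 shared by a pair. Median UMIs per member were 1710, 1529.5, 1344.5 and 1358.5 in mutants 10, 11, 12 and 17, against 2199, 1476 and 2051 in controls 14, 15 and 16. Mutants 12 and 17 were shallower than every control, mutants 10 and 11 lay between control 15 and the other 2, and the groups overlapped (two-sided exact permutation p = 0.143). The smallest p that 4 against 3 embryos allow is 0.0286. The median mitochondrial share of members was 4.24%, 3.51%, 3.17% and 3.38% in mutants, against 4.72%, 5.52% and 4.33% in controls, with every mutant below every control (exact permutation p = 0.0571 on the means). Since the 7 embryos are 1 litter, p-values speak of the spread between these littermates.

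Beyond the rule genes, the genes with the largest ratios of members to other barcodes included receptor, channel and synaptic genes. The gate was made from the same cells, so these levels are a description with no test. Levels below are means ± SD of the CPM in 7 embryos. Gria1, an AMPA receptor subunit, reached 1334 ± 272 CPM in members, against 122 ± 15.6 CPM in all other kept barcodes. Neto1, an auxiliary subunit of kainate receptors, reached 211 ± 85.0 CPM in members and 12.1 ± 4.48 CPM in the others. Both genes were higher in members in all 7 embryos. Erbb4 reached 834 ± 116 CPM in members, against 53.3 ± 8.06 CPM in the others. Among other genes of excitatory input, Grik1, a kainate receptor subunit, was 14.9-fold higher, Gria4 6.68-fold higher and Cacng3, which encodes an AMPA receptor regulator, 26.5-fold higher. The largest ratio among genes of at least 50 CPM belonged to Nxph2, a relative of Nxph1, with 33.1-fold. Kcnc2, a potassium channel gene of later fast-spiking cells, was 11.2-fold higher. Genes shared by GABAergic neurons were also among the 25 with the largest ratios. Slc32a1, the vesicular GABA transporter, was 9.22-fold higher and Nrxn3, a presynaptic neurexin, 10.4-fold higher.

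Set beside the 238 CGE-type interneurons, which were gated on Adarb2, Htr3a and Prox1 in the same way, the members are described by single named genes, again with no test. Gria1 stood at 1334 ± 272 CPM in members and 71.1 ± 60.8 CPM in CGE-type cells. Npy, a neuropeptide that many somatostatin cells also make, stood at 261 ± 113 CPM in members and 10.2 ± 16.7 CPM in CGE-type cells. Calb1, a calcium-binding protein gene of somatostatin cells, stood at 97.4 ± 46.8 CPM in members and had 0 UMIs in CGE-type cells, so it was at least 18.3-fold higher against a floor of 3 counts over the group. Each of these 3 genes was higher in members in all 7 embryos. Sox6 and Satb1, both factors downstream of Lhx6, were 7.63-fold and 2.97-fold higher. Other genes ran the opposite way. Nr2f2, a nuclear receptor typical of the CGE, stood at 27.2 ± 11.4 CPM in members and 257 ± 81.8 CPM in CGE-type cells. Npas1 stood at 43.0 ± 21.7 CPM in members and 213 ± 115 CPM in CGE-type cells. Cnr1, the cannabinoid receptor gene of many CGE interneurons, stood at 132 ± 61.6 CPM in members and 599 ± 164 CPM in CGE-type cells. Sp8, a zinc finger factor of the CGE, was 11.4-fold higher in CGE-type cells. Genes common to both classes stood close together, with ratios of members to CGE-type cells of 1.20 for Erbb4, 1.02 for Gad1, 1.22 for Slc32a1 and 1.09 for Nrxn3.

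**Figure D1:**
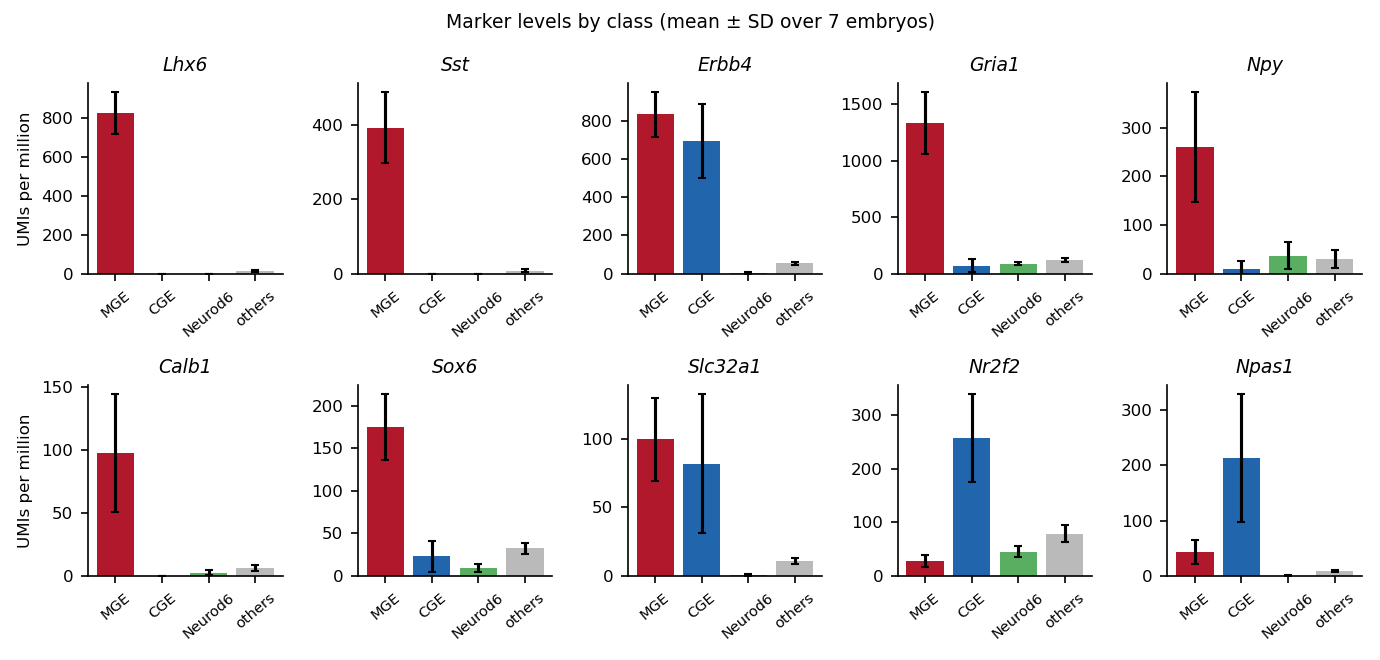
Bars give the mean and error bars the SD over 7 embryos of CPM for 10 genes in MGE-type cells, CGE-type cells, Neurod6 neurons and all other kept barcodes; each vertical axis starts at 0. Gria1 stands at 1334 CPM in MGE-type and 71.1 CPM in CGE-type cells, Erbb4 at 834 and 695 CPM, and Nr2f2 at 27.2 and 257 CPM. Lhx6 and Sst were used by the gates.

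Among themselves, members differed by whether they held Sst. A total of 158 members had at least 1 Sst UMI, 3 of them had 10 or more, and the highest count in a cell was 12. The split uses Sst, so what follows describes cells and is not tested. Npy stood at 453 ± 226 CPM in members with Sst and 126 ± 86.0 CPM in those without, and was higher with Sst in 6 of 7 embryos. Grin3a, an NMDA receptor subunit found in somatostatin cells, stood at 91.5 ± 83.2 CPM with Sst and 1.30 ± 3.44 CPM without. Grik1 stood at 97.4 ± 74.7 CPM with Sst and 41.4 ± 10.4 CPM without, and was higher with Sst in all 7 embryos. The SD of Grin3a was nearly as large as its mean. Erbb4, which in the adult is higher in parvalbumin than in somatostatin cells, stood at 646 ± 159 CPM with Sst and 959 ± 165 CPM without, and was lower with Sst in all 7 embryos. Nrp1, a semaphorin receptor of migrating neurons, stood at 127 ± 90.2 CPM with Sst and 224 ± 74.8 CPM without, again lower with Sst in all 7 embryos.

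The number of MGE-type cells did not separate the genotypes. Their share of kept barcodes was 3.07%, 2.16%, 1.35% and 1.70% in mutants 10, 11, 12 and 17, against 2.63%, 2.23% and 1.38% in controls 14, 15 and 16. The groups overlapped over most of their range. The mean was 2.07 ± 0.747% in mutants against 2.08 ± 0.642% in the 3 controls (SD), a difference of -0.011 percentage points (exact permutation p = 0.971). Among MGE-type plus CGE-type cells, the MGE-type share was 61.9%, 65.4%, 55.6% and 72.9% in mutants, against 67.4%, 69.6% and 64.1% in controls. The mutants lay on both sides of the controls, and the means were 63.9 ± 7.25% in mutants against 67.1 ± 2.75% in controls (exact permutation p = 0.543). Thinned to 1000 UMIs per barcode, the shares were 62.5%, 60.9%, 57.1% and 60.0% in mutants, against 70.2%, 65.5% and 76.3% in controls, with every mutant below every control (exact permutation p = 0.0286). Over the other alternatives that p ran from 0.2 to 1, and the part of depth in the thinned value was not tested. An exact binomial 95% interval of that share in 1 embryo, which covers counting error only, ran for example from 44.7% to 66.0% in mutant 12 and from 53.5% to 73.9% in control 16.

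The share of members with an Sst UMI was 29.2%, 42.6%, 30.0% and 29.0% in mutants 10, 11, 12 and 17, against 44.8%, 36.8% and 32.2% in controls 14, 15 and 16. Mutants 10, 12 and 17 were lower than every control and mutant 11 lay among the controls, with means of 32.7 ± 6.63% in mutants against 37.9 ± 6.39% in controls (exact permutation p = 0.343). By level, Sst stood at 218, 412, 405 and 394 CPM in mutants, against 542, 413 and 367 CPM in controls. The groups overlapped, and the fitted log2 fold change was -0.29 (SE 0.22, edgeR adjusted p = 0.882). Sst is itself a rule gene, so both comparisons were made on cells chosen partly by Sst. A cell that lost Sst could leave the members, so the share and the level could miss such a loss. These tests therefore do not decide whether Sst differed between the genotypes.

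**Figure D2:**
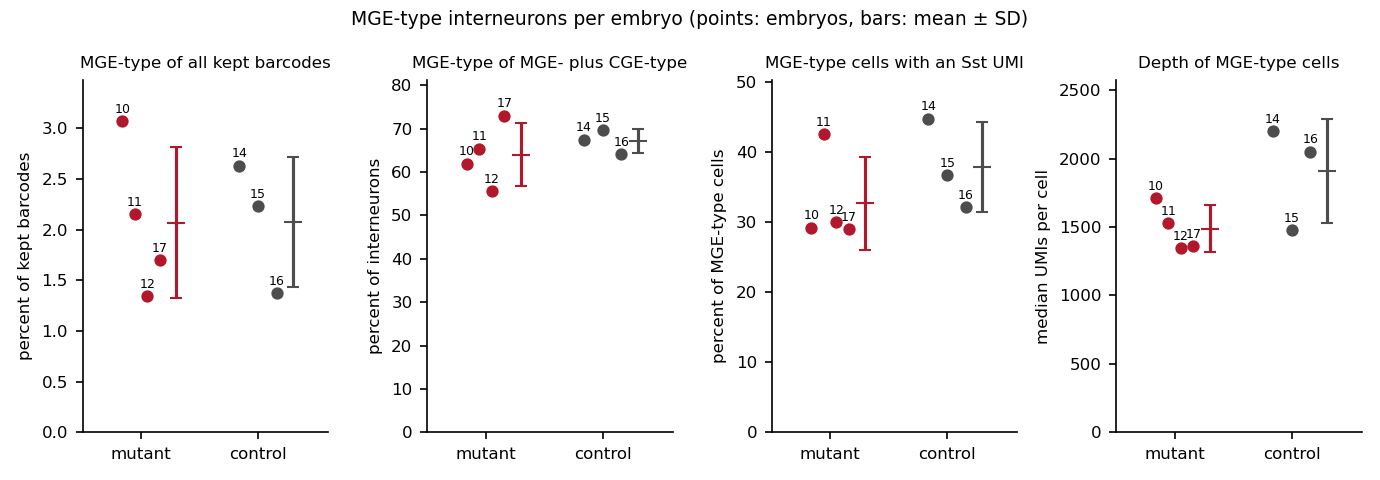
Points give each embryo, numbered by replicate, with the mean and SD beside them, for the MGE-type share of kept barcodes, the MGE-type share of MGE-type plus CGE-type cells, the share of MGE-type cells with an Sst UMI and the median UMIs per MGE-type cell. Mutants stand left of controls and every axis starts at 0; the first share averages 2.07% in mutants and 2.08% in controls.

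Few genes differed between mutant and control members. UMIs were summed per embryo and tested with the quasi-likelihood test of edgeR. Of 3600 genes tested, 5 rose and 2 fell in mutants at an adjusted p under 0.05, which is 0.139% and 0.0556% of all tested genes, or 0.194% in all. The genes that fell were Fos and Jun, which encode the partners of the AP-1 transcription factor. Those that rose were the haemoglobin genes Hba-a1, Hba-a2, Hbb-bs and Hbb-bt and the radial glia gene Fabp7. The 5 that rose rested on a handful of cells, as described further on. The median log2 fold change over all tested genes was 0.01, and 232 genes had an unadjusted p under 0.05. The groups did not overlap for 86 higher genes (2.39%) and 149 lower genes (4.14%).

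**Figure D3:**
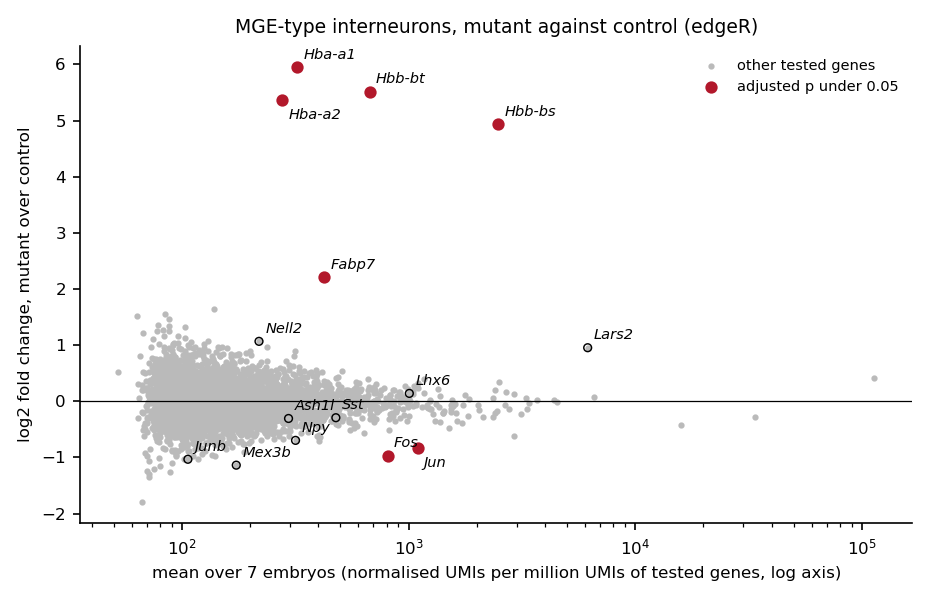
Each point is 1 of 3600 genes in MGE-type cells, with the mean normalised level over 7 embryos on a log axis and the log2 fold change of mutant over control on the vertical axis. Filled red points passed an adjusted p of 0.05: Fos (-0.97) and Jun (-0.83) lie below 0, and 4 haemoglobin genes and Fabp7 lie above it; open circles mark other genes named in the text.

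Fos stood at 399, 672, 405 and 375 CPM in mutants 10, 11, 12 and 17, against 1024, 988 and 798 CPM in controls 14, 15 and 16. Every mutant lay below every control, with mutant 11 the closest to them. The log2 fold change was -0.97 (SE 0.20, edgeR adjusted p = 0.0141), and an exact permutation test on the CPM means gave p = 0.0571. The transcripts were spread over many cells: 102 of 245 mutant members held 230 Fos UMIs, with at most 14 in a cell, and 117 of 204 control members held 422, with at most 18. The share of members with a Fos UMI was 41.6 ± 9.07% in mutants against 57.5 ± 1.15% in controls (exact permutation p = 0.0571). Thinned to 1000 UMIs it was 30.1 ± 7.73% in mutants against 50.0 ± 4.87% in controls (exact permutation p = 0.0571). Fos was also detected in 53.6% of the barcodes with Neurod6 and in 46.2% of 39 vascular and microglial barcodes, so it was not particular to interneurons.

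Jun stood at 538, 657, 822 and 664 CPM in mutants 10, 11, 12 and 17, against 1302, 1288 and 1053 CPM in controls 14, 15 and 16. Again every mutant lay below every control. The log2 fold change was -0.83 (SE 0.19, edgeR adjusted p = 0.0460, exact permutation p = 0.0286 on the CPM means). The share of members with a Jun UMI was 57.1 ± 1.72% in mutants against 61.6 ± 5.0% in controls (exact permutation p = 0.171). The 140 mutant members with Jun held 319 UMIs, with at most 11 in a cell, and the 126 control members with Jun held 547, with at most 34. Split by Sst, Jun averaged 738 ± 238 CPM in mutants and 846 ± 382 CPM in controls among members with an Sst UMI, where the groups overlapped (exact permutation p = 0.657). Among members without Sst it averaged 628 ± 117 CPM in mutants and 1466 ± 284 CPM in controls, with no overlap (exact permutation p = 0.0286). Fos averaged 541 ± 147 CPM in mutants and 954 ± 189 CPM in controls with Sst (exact permutation p = 0.0286), and 424 ± 206 CPM in mutants and 942 ± 271 CPM in controls without it (exact permutation p = 0.0571). Whether the genotype effect differed between members with and without Sst was not tested.

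The calls of both genes were lost when certain single embryos were left out, while the log2 fold changes stayed negative. Over 25 alternatives the log2 fold change of Fos ran from -1.20 to -0.71 and its adjusted p from 0.000426 to 0.568, with 19 alternatives past the threshold. Without mutant 10, mutant 17, control 14 or control 15 the adjusted p was 0.239, 0.105, 0.139 and 0.0898, with the log2 fold change between -0.94 and -0.89. For Jun the log2 fold change ran from -0.94 to -0.53 and the adjusted p from 0.00390 to 0.716, with 10 alternatives past the threshold, and leaving out any embryo but mutant 12 ended the call (adjusted p 0.0768 to 0.484). With a mitochondrial maximum of 5% the adjusted p was 0.568 for Fos and 0.716 for Jun, with 43 to 49 members left in each mutant and 34 to 38 in each control. The median mitochondrial share of members, like the level of these genes, was lower in every mutant than in every control. Median depth did not separate the groups in this way. Controls 14 and 16 were deeper than every mutant, but control 15 (1476 UMIs) was shallower than mutant 10 (1710 UMIs) and mutant 11 (1529.5 UMIs). Fos and Jun were nevertheless higher in control 15 than in those mutants. The part of mitochondrial share and depth in the result was not tested.

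Since these 2 genes fell together, their promoters are given as the 250 bases before the RefSeq start (GRCm38.p6), 5′ to 3′. Fos lies at chr12:85473640-85473889 on the plus strand and Jun at chr4:95052223-95052472 on the minus strand. Capitals mark the core cAMP element TGACGT and the TATA box TATAAA in Fos, and the AP-1-like element TGACATCA in Jun.
Fos: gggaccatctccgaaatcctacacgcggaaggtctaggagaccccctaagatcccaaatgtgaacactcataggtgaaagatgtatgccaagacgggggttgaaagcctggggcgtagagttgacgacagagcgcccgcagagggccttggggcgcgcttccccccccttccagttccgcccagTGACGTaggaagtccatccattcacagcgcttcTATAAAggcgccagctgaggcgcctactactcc
Jun: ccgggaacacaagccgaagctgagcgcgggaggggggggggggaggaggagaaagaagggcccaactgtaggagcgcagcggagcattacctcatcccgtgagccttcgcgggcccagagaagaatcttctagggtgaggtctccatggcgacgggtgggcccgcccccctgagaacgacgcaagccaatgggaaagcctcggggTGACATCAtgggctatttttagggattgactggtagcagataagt
The element in Fos begins 66 bases before the start and that in Jun 45 bases before it. On either strand TGACGT, which is also contained in TGACGTCA, occurs in 6.50% of the promoter windows, TATAAA in 12.3% and TGACATCA in 2.84%. The full element TGACGTCA and the AP-1 site TGACTCA were searched too, and neither was in the Fos or Jun window. These are matches of letters in reference sequence and say nothing of binding in these cells.

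The wider immediate early list, genes that neurons and dissociated cells switch on within minutes, had 2 calls. Of its 21 genes 12 were tested, 2 fell (Fos and Jun) and none rose, and over all 3600 tested genes 0.0556% fell and 0.139% rose. Negative values were found for 7 of the 12, beside 1747 of all 3600 tested genes. An unadjusted p under 0.05 was found for 4, beside 232 of all tested genes. The median log2 fold change was -0.23 beside 0.01 over all tested genes. Fos and Jun enter these counts and the median. Summed over the list, Fos and Jun included, the level was 2484 to 3538 CPM in mutants and 4116 to 4282 CPM in controls, with every mutant below every control. That sum holds the 2 called genes, so its separation is no result about the rest of the list. Junb, another AP-1 partner, stood at 30.2, 61.1, 76.7 and 77.0 CPM in mutants 10, 11, 12 and 17, against 129, 106 and 134 CPM in controls 14, 15 and 16. The groups did not overlap, but the log2 fold change of -1.03 (SE 0.37) missed the threshold (edgeR adjusted p = 0.628). Fosb, a close relative of Fos, had the opposite sign, with 296, 344, 197 and 269 CPM in mutants and 183, 119 and 297 CPM in controls (log2 fold change 0.55, SE 0.26, adjusted p = 0.742). Heat shock genes, a further mark of stress during dissociation, had 0 of 12 tested genes called and a median of -0.11. Of these, 10 had negative values and 2 positive, beside 1747 negative among all 3600 tested genes. Their summed level was 4316 to 5619 CPM in mutants and 5228 to 5702 CPM in controls, where the groups overlapped.

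**Figure D4:**
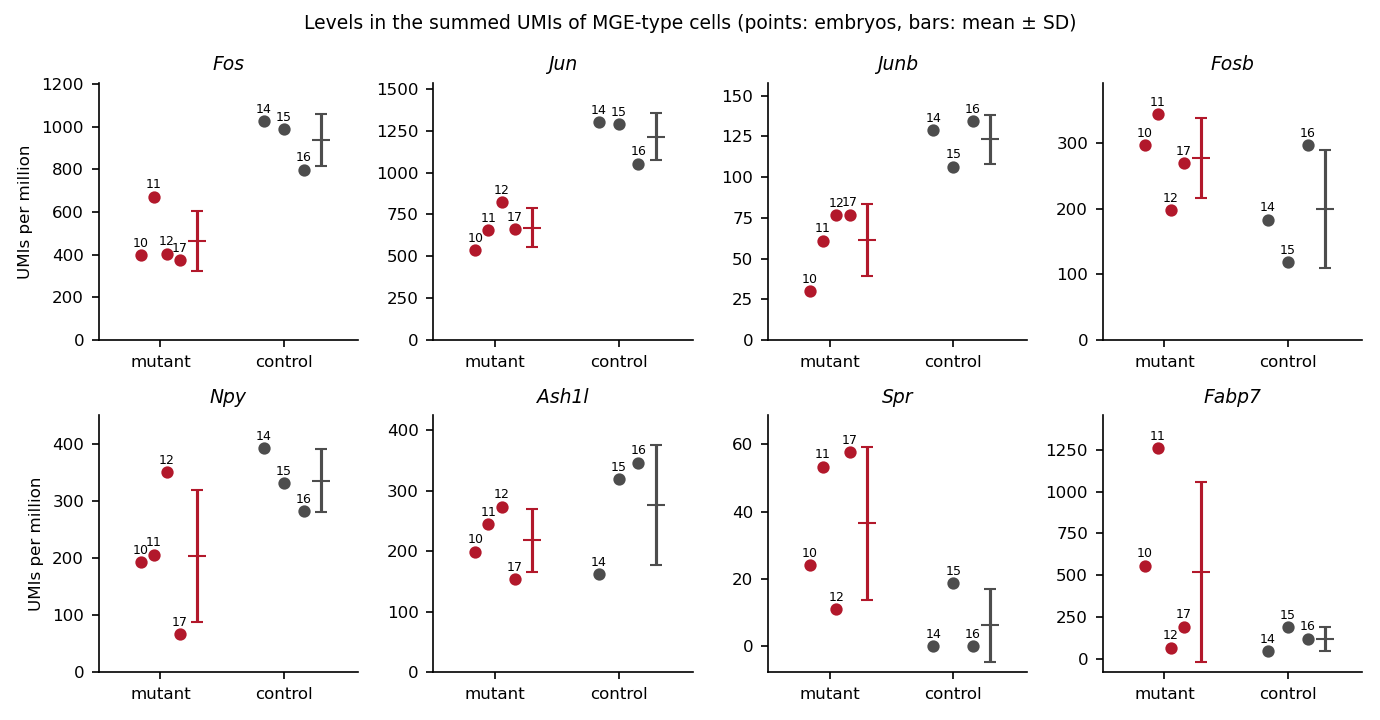
Points give CPM in the summed MGE-type cells of each embryo, numbered by replicate, with the mean and SD beside them; mutants stand left of controls. The mutants lie between 375 and 672 CPM for Fos and between 538 and 822 CPM for Jun, below all controls, whereas Fosb, Npy, Ash1l, Spr and Fabp7 overlap.

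The haemoglobin and Fabp7 calls came from few cells. Hbb-bs, a beta globin gene of red blood cells, had 950, 14, 53 and 749 UMIs in mutants 10, 11, 12 and 17, against 8, 14 and 29 UMIs in controls 14, 15 and 16. A single cell held 919 of the 950 UMIs in mutant 10, and another held 679 of the 749 in mutant 17. Its log2 fold change was 4.94 (SE 0.68), and leaving out the members with at least 10 haemoglobin UMIs, 7 mutant and 2 control cells, gave -0.22 (edgeR adjusted p = 0.980). Over its alternatives the log2 fold change of Hbb-bs ran from -0.22 to 7.62 and the adjusted p from 4.61e-69 to 0.998. Without mutant 10, mutant 12 or mutant 17, Hbb-bs stayed past the threshold, and the other 3 haemoglobin genes fell under the filter on low counts and were not tested. Fabp7, a fatty acid binding protein of radial glia, had 92, 165, 6 and 20 UMIs in mutants, against 7, 30 and 17 UMIs in controls. A single cell held 158 of the 165 in mutant 11 and another 62 of the 92 in mutant 10, and the groups overlapped (log2 fold change 2.21, SE 0.45, adjusted p = 0.0136). Fabp7 lost its call without mutant 10, mutant 11 or control 14, with adjusted p of 0.0573, 0.191 and 0.0938, and over its alternatives the adjusted p ran from 1.4e-13 to 1.0. Other lists showed the same pattern of single cells. Oligodendrocyte precursor genes had 92 UMIs in mutant 10, of which 1 cell held 86, and at most 2 UMIs in any other embryo. Meningeal and choroid plexus genes had 76 UMIs in 1 cell of mutant 10 and at most 1 UMI elsewhere. Summed radial glia genes reached 449 to 1710 CPM in mutants and 373 to 480 CPM in controls. Without the members rich in haemoglobin or in radial glia genes, Fos was the 1 gene called (log2 fold change -1.01, adjusted p = 0.00625), a choice made after seeing the data.

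Of the genes next in order of p, none passed the threshold. Lars2, a mitochondrial leucyl-tRNA synthetase, stood at 9194, 5978, 5564 and 4330 CPM in mutants 10, 11, 12 and 17, against 5540, 2151 and 2346 CPM in controls 14, 15 and 16 (log2 fold change 0.95, SE 0.25, edgeR adjusted p = 0.182). Control 14 lay among the mutants. The log2 fold change of Lars2 was similar in CGE-type cells (0.97, SE 0.29, adjusted p = 0.451) and Neurod6 neurons (0.92, SE 0.23, adjusted p = 0.133). The Lars2 difference was thus not particular to the members. Nell2, a secreted ligand of Robo3, stood at 187, 214, 263 and 260 CPM in mutants and 102, 163 and 63.6 CPM in controls (1.07, SE 0.29, adjusted p = 0.238). Mex3b, an RNA-binding protein gene, stood at 66.5, 84.0, 131 and 96.2 CPM in mutants and 197, 125 and 304 CPM in controls (-1.14, SE 0.31, adjusted p = 0.259). Nell2 separated the groups and Mex3b did not. Vim, Zgpat, Zscan18, Cstf2, Capns1 and Atxn2l had positive and Ube2n, Daam1, Med30 and Arl4c negative log2 fold changes, with adjusted p from 0.259 to 0.628. In simulated data of the same depth, 42.0% of genes changed 2-fold and 77.0% of genes changed 4-fold were recovered, so many changes of 2-fold would be missed. The simulation also gave 8 false calls. Its spread between embryos was set to a fixed value and not estimated from these data.

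The transcription factors that make and keep MGE identity, some of which the rule used, did not differ detectably among members. Of 19 genes on this list 12 were tested and 0 were called, with a median log2 fold change of -0.25. Lhx6 stood at 774, 741, 1019 and 876 CPM in mutants 10, 11, 12 and 17, against 888, 763 and 721 CPM in controls 14, 15 and 16. The groups overlapped (log2 fold change 0.14, SE 0.19, edgeR adjusted p = 0.95). Maf stood at 387, 420, 296 and 491 CPM in mutants and 563, 450 and 551 CPM in controls (-0.34, SE 0.20, adjusted p = 0.873). The groups overlapped for Maf too. Sox6, Satb1 and Dlx1 had log2 fold changes of 0.29, -0.33 and -0.18, with adjusted p from 0.882 to 0.931. These values bound the comparison only by their errors and do not show that the genes were equal. Lhx6, Maf, Dlx1 and Dlx6os1 also belong to the rule. A cell that lost them could leave the members, so their levels here could miss such a loss.

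The tested genes of the somatostatin type had negative values without a call. Of 15 listed genes 4 were tested (Sst, Npy, Calb1 and Reln), all 4 had negative log2 fold changes, and 0 were called, with a median of -0.28. Over all 3600 tested genes 1747 were negative, and Sst is a rule gene. Npy stood at 193, 206, 351 and 67.3 CPM in mutants 10, 11, 12 and 17, against 393, 331 and 283 CPM in controls 14, 15 and 16. Mutants 10, 11 and 17 were below every control and mutant 12 was among them (-0.70, SE 0.28, unadjusted p = 0.0157, edgeR adjusted p = 0.631, exact permutation p = 0.171). Within members that held Sst, Npy averaged 305 ± 166 CPM in mutants and 650 ± 98.6 CPM in controls, and in those without Sst 130 ± 119 CPM in mutants and 120 ± 31.0 CPM in controls. Calb1 had a log2 fold change of -0.15 (SE 0.39) and Reln, the extracellular guidance protein, of -0.27 (SE 0.28). Of 13 genes of the parvalbumin type, 3 were tested and 0 called; Mef2c, an activity-dependent factor of these cells, had a log2 fold change of -0.08 and Erbb4 of 0.00.

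Migration, GABA handling and excitability genes gave no calls either. Of 30 migration genes 20 were tested and 0 called, with a median log2 fold change of -0.08. Robo2, a Slit receptor, stood at 145, 160, 76.7 and 144 CPM in mutants 10, 11, 12 and 17, against 163, 244 and 219 CPM in controls 14, 15 and 16. Mutant 11 came close to control 14 without overlap, and the gene was not called (-0.58, SE 0.27, edgeR adjusted p = 0.726). Of 13 genes for making, packing and clearing GABA 7 were tested with a median of -0.10. Of 15 glutamate receptor genes 8 were tested with a median of -0.02, and Gria1 itself had a log2 fold change of -0.21 (SE 0.20). Of 25 synapse genes 16 were tested and 0 called, with 13 negative values, beside 1747 among all 3600 tested genes, and a median of -0.20. Of 18 ion channel genes 5 were tested, and Kcnq3, a potassium channel subunit, had 78.6, 76.3, 142 and 48.1 CPM in mutants and 33.9, 31.3 and 35.3 CPM in controls. Every mutant was above every control for Kcnq3, without a call (1.35, SE 0.49, adjusted p = 0.628). Splicing regulators (10 tested), apoptosis genes (4), imprinted genes (9) and chromatin genes of neurodevelopment (15) had 0 calls and medians between -0.06 and 0.01.

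The targeted gene was not lower beyond the spread in these cells. Ash1l stood at 199, 244, 274 and 154 CPM in mutants 10, 11, 12 and 17, against 163, 319 and 346 CPM in controls 14, 15 and 16. The groups overlapped (log2 fold change -0.31, SE 0.26, edgeR adjusted p = 0.887). The floxed part of Ash1l is not stated, and beads that prime on the poly(A) tail count transcripts whether or not an exon upstream is gone, so this value does not check the labels. Of the other H3K36 enzymes and their partners, 16 of 22 genes were tested and 0 called, with a median of -0.07. Emx1 had 2, 4, 0 and 3 UMIs in mutants and 2, 1 and 0 UMIs in controls. It was seen in 2.23% of members and in 3.78% of CGE-type cells, which also do not derive from Emx1 progenitors and had a median of 1673.5 UMIs, so this share is read as background.

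Spr and Esr1, which rose in the Neurod6 neurons of mutants, were too rare in the members for the fit. In the 3449 Neurod6 neurons, the class in which Emx1 is a lineage gene, Spr, a pterin enzyme gene next to Emx1, rose (log2 fold change 1.32, SE 0.17, edgeR adjusted p = 0.00136). Of 10210 genes tested in that class 0.137% were called, 0.0294% higher and 0.108% lower. In members Spr had 4, 7, 1 and 6 UMIs in mutants 10, 11, 12 and 17, against 0, 3 and 0 UMIs in controls 14, 15 and 16. Mutant 12 lay below control 15, and the CPM means gave an exact permutation p of 0.114. A Spr UMI was seen in 3.79% of members, 5.88% of CGE-type cells and 13.9% of the barcodes with Neurod6. Esr1, the oestrogen receptor gene whose human form supplies the ERT2 part of the Cre, rose in Neurod6 neurons (3.04, SE 0.52, adjusted p = 0.0240), and in members it had 2 UMIs, both in mutant 11, against 0 in controls. Npy fell in Neurod6 neurons (-1.49, SE 0.29, adjusted p = 0.0324), and its effect in members differed from that by 0.63 (SE 0.34, adjusted p = 0.986).

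Whether the effect of genotype differed between classes was tested as an interaction with the embryo as a fixed term. For Fos the log2 fold change was -0.97 in members, -0.79 (SE 0.25) in CGE-type cells and -0.38 (SE 0.18) in Neurod6 neurons, and neither of the other classes passed the threshold (edgeR adjusted p = 0.451 and 0.395). In CGE-type cells 0.0454% of 2205 tested genes were called, the 1 gene being higher. The difference between members and CGE-type cells was -0.16 (SE 0.27, adjusted p = 0.991), and that between members and Neurod6 neurons -0.68 (SE 0.20, adjusted p = 0.270). For Jun the log2 fold change was -0.83 in members, -0.63 in CGE-type cells and -0.34 in Neurod6 neurons. The differences were -0.22 (SE 0.21, adjusted p = 0.971) from CGE-type cells and -0.55 (SE 0.16, adjusted p = 0.371) from Neurod6 neurons. The fall in Fos and Jun passed the test in the members, but in the full set of embryos it was not shown to differ from the other 2 classes. Without control 16 the Fos difference from Neurod6 neurons was -0.90 and passed (adjusted p = 0.0337), and in the other 23 alternatives it did not.

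Across all genes, the effect differed between members and CGE-type cells for 5 of 3371 genes (0.148%) and between members and Neurod6 neurons for 8 of 8783 genes (0.0911%), 0.0797% higher and 0.0114% lower. Against CGE-type cells these were Fabp7, Tnc, Vim and Slc1a3, all genes of radial glia or astroglia, and Dab1, the intracellular adaptor of reelin signalling. Against Neurod6 neurons they were Fabp7, Slc1a3, the 4 haemoglobin genes, Adarb1 and Hist1h1c. Dab1 stood at 78.6, 122, 153 and 250 CPM in the members of mutants 10, 11, 12 and 17, against 54.2, 106 and 63.6 CPM in those of controls 14, 15 and 16. In CGE-type cells it stood at 29.9, 75.3, 123 and 115 CPM in mutants, against 175, 167 and 219 CPM in controls. Mutants 11, 12 and 17 were above every control in members, and in CGE-type cells every mutant was below every control, with a difference of 2.15 (SE 0.50, edgeR adjusted p = 0.0412), and the call held in 7 of 22 alternatives (adjusted p from 0.0142 to 1.0). Leaving out any embryo but control 15 ended it, with adjusted p from 0.0620 to 0.365. Adarb1, an RNA-editing enzyme, had 8, 5, 6 and 2 UMIs in the members of mutants, against 0 in all 3 controls, which makes its summed level at least 6.39-fold higher against a floor of 3 counts over the controls. In Neurod6 neurons Adarb1 ran the other way without a call (-0.36, SE 0.18, adjusted p = 0.441). Recovery in the simulated data was lower for these interaction fits. Against CGE-type cells 9% of 2-fold and 55% of 4-fold changes were recovered, and against Neurod6 neurons 4% and 35%.

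**Figure D5:**
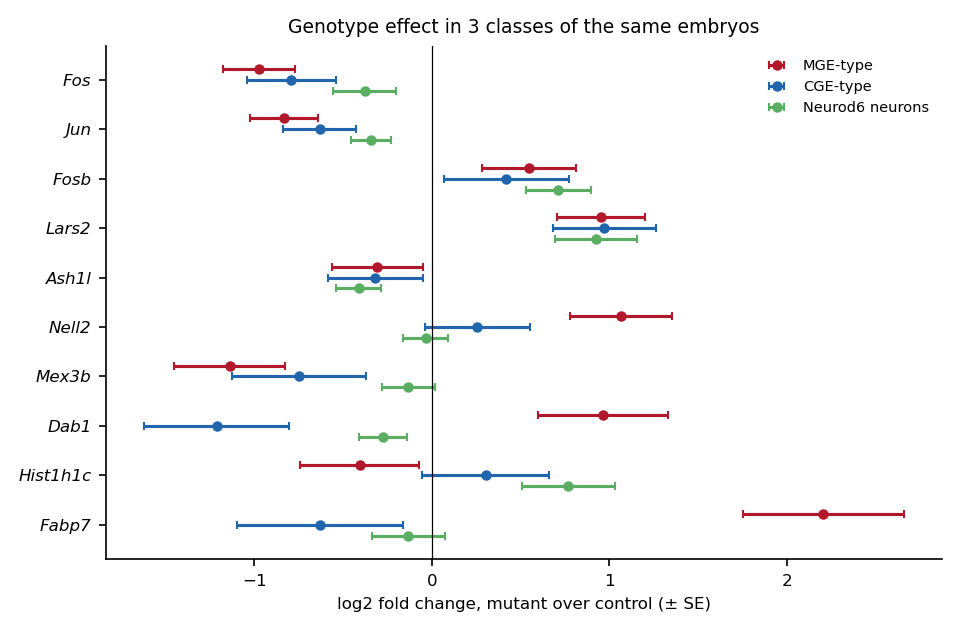
Points give the log2 fold change of mutant over control and bars its SE for 10 genes in MGE-type cells, CGE-type cells and Neurod6 neurons of the same 7 embryos. Fos is -0.97, -0.79 and -0.38 in the 3 classes and Jun -0.83, -0.63 and -0.34, while Dab1 is 0.96 in MGE-type cells and -1.21 in CGE-type cells.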

How the data were processed

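The authors deposited 1 table of UMI counts per library, which are whole numbers and not normalised. Reads were aligned with STAR to mm10, per the submitters' processing notes. Tool versions, the annotation, the barcode filter and how UMIs were collapsed are not stated, and haemoglobin paralogs may share reads. Genotypes come from the labels, and every pair of libraries differed by more than sampling noise (chi-square per gene from 5.85 to 37.4). The members, gene lists and tests were chosen with earlier results of these data known. Barcodes were kept at 500 detected genes and 10% mitochondrial UMIs, with no doublet caller. CGE-type cells had at least 2 UMIs of Adarb2, Htr3a and Prox1 and 0 of Lhx6, Sst, Maf and Nxph1. Their other conditions were as for members. Neurod6 neurons had at least 2 Neurod6 UMIs and 0 of Lhx6, Sst, Maf, Nxph1, Gad1, Gad2, Dlx1, Dlx6os1, Top2a and Mki67. No condition was set on Adarb2, Htr3a or Prox1 in Neurod6 neurons. Counts were summed per embryo and class and tested with edgeR 4.0.16 (TMM, filterByExpr, quasi-likelihood, Benjamini-Hochberg adjusted p under 0.05 over all genes tested), checked on simulated data. Medians and shares were compared by two-sided exact permutation over 35 splits. Alternatives changed the filters, rule, normalisation and tool (DESeq2 1.42.0, voom of limma 3.58.1) and left out each embryo. Named genes are those called, the next by p up to 20, the genes called in the interaction fits, listed genes, and the largest class ratios at 50 CPM or more. Promoter sequences are RefSeq's for GRCm38.p6.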

Additional observations from a re-analysis of the deposited data

Results flagged for a closer look

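Among the 4 mutants, mutant 11 stood apart from the other 3 in 2 measures of its MGE-type cells, the share with an Sst UMI (42.6%) and the Fos level (672 CPM), and mutant 10 stood apart in its Sst level (218 CPM). Chance flags about 1 in 20 groups of this size, and 28 groups were examined.

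The genotype effect in MGE-type minus CGE-type cells, on the log2 scale, was 2.87 for Fabp7, 3.90 for Tnc, 2.81 for Vim, 4.58 for Slc1a3 and 2.15 for Dab1, each past an adjusted p of 0.05 in edgeR. In MGE-type cells, 1 cell of mutant 11 held all 31 Tnc UMIs of that embryo, and Slc1a3 had 38 UMIs in mutants and 3 in controls. In CGE-type cells these genes had fewer UMIs in mutants, with 8 against 50 in controls for Tnc and 46 against 114 for Vim. For Slc1a3 they were 15 against 38 and for Fabp7 35 against 59, so the differences draw on both classes. In MGE-type cells minus Neurod6 neurons the effect was 2.19 for Fabp7, 3.45 for Slc1a3, 5.06 for Hba-a1, 4.49 for Hba-a2, 2.94 for Hbb-bs and 3.98 for Hbb-bt. It was 8.66 for Adarb1, a fitted value that depends on the prior count since the controls had 0 UMIs. It was -1.18 for Hist1h1c, a linker histone gene, whose log2 fold change was -0.41 in MGE-type cells and 0.77 in Neurod6 neurons. Hist1h1c in MGE-type cells stood at 206, 191, 471 and 144 CPM in mutants 10, 11, 12 and 17, against 136, 225 and 650 CPM in controls 14, 15 and 16, and control 16 was the highest.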

How the results depend on the processing

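No paired analysis was possible because replicate numbers are not shared between genotypes. The difference in the MGE-type share of kept barcodes, -0.011 points, changed sign under a mitochondrial maximum of 20% (0.0298) and with rule genes summing to at least 1 (0.105), and ran from -0.363 to 0.265 when each embryo was left out, never past the threshold. The MGE-type share of MGE-type plus CGE-type cells differed by -10.5 points after thinning. Genes called in MGE-type cells numbered 7, and 4 with a mitochondrial maximum of 5%, 1 without barcodes over 2 times the library median (called deep from here on), 3 without haemoglobin-rich members, 1 without those or radial glia-rich members, 15 with no filter, 2 with at least 10 counts in every embryo, 2 by DESeq2 (Fos and Jun), 3 by voom (Fos, Jun and Lars2), 0 in a joint fit of 3 classes, in which 353 genes had an unadjusted p under 0.05, and 1 to 7 when each embryo was left out (1 without mutant 10, 2 without mutant 17). Calls against CGE-type cells numbered 5, and 3 with a mitochondrial maximum of 5%, with rule sums of at least 3 or at least 1, with Neurod6 at 0, and by voom, 0 without deep barcodes, without radial glia-rich members, without either set, with at least 10 counts and by DESeq2, and 3 to 12 when each embryo was left out (12 without control 15, 3 without mutant 11). Calls against Neurod6 neurons numbered 8, and 14 with rule sums of at least 3, 0 with sums of at least 1, 0 without deep barcodes, 5 without haemoglobin-rich members, 3 without either set, 1 with at least 10 counts, 0 by DESeq2, 4 by voom and 5 to 19 when each embryo was left out (19 without control 15, 5 without mutant 17). Where 0 genes were called against CGE-type cells, 67, 163, 159, 39 and 34 genes had an unadjusted p under 0.05, in the order given, and against Neurod6 neurons 495, 275 and 205.

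Some single genes changed sign. Without haemoglobin-rich members and without either set, Hbb-bs was -0.22 and -0.038 in MGE-type cells and -0.86 and -0.70 against Neurod6 neurons. Without radial glia-rich members, Fabp7 was -0.65 and Vim -0.26 against CGE-type cells, and Fabp7 was -0.15 against Neurod6 neurons (-0.10 without either set). Ash1l was 0.0078 with a mitochondrial maximum of 5%, and there the Fos and Jun differences from CGE-type cells were 0.23 and 0.29. The Fos difference ran from -0.355 to 0.0386 when each embryo was left out (0.0386 without control replicate 15), and the Jun difference 0.11 without deep barcodes. Leaving out cells or embryos removes the UMIs those values rest on, and in other cases the cause was not tested. The members of an embryo held 91294 to 165437 UMIs, which limits rare genes.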
